A study of Mus musculus with 12 samples.

Results

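The immediate early transcription factors are genes that cells switch on within minutes of a stimulus, without new protein synthesis. They were followed here in mouse bone marrow through 10 members: Fos, Fosb, Jun, Junb, Jund, Egr1, Klf2, Klf4, Atf3 and Ier2. A member was read on every probe set of the array that carries its symbol and no other, which gave 13 probe sets of the 45101 on the array. Jun, Jund and Klf4 have 2 probe sets each, and the brighter one stood for the gene. All 10 genes, of 18193 with such a probe set, were above the array median on all 12 arrays and were among the 11908 genes tested.

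FOS and JUN family proteins pair through leucine zippers into the AP-1 factor. EGR1 and the KLF proteins bind GC-rich DNA through zinc fingers. Growth factors, cytokines, mitogen-activated protein (MAP) kinase signalling and mechanical or temperature stress all induce these genes, and their mRNAs are short-lived. They are also known to respond to the handling of freshly isolated tissue.

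RNA came from unfractionated, uncultured marrow cells flushed out of the tibia and femur. The mice were 3 wild-type C57Bl/6 mice, 3 Fancc-/- mice, 3 Fancg-/- mice and 3 double-knockout mice lacking both Fancc and Fancg. FANCC and FANCG are subunits of the Fanconi anemia core complex, needed to repair crosslinked DNA. RNA was described as not pooled, so each array is taken as 1 mouse. Labelling started from 0.91 µg of RNA for Fancg-/- replicate 3 and from 2 µg for all others. Neither sex nor age is given in the labels, nor any agent, processing date or strain background of the knockout mice. All values are log2 signals, so a difference of 1 is a doubling, and levels of different probe sets are not compared.

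Several arrays stood apart from their labels or groups. Double-knockout replicates 2 and 3 correlated with each other at 0.992 over the tested genes, and with replicate 1 of their group at 0.973. Replicate 1 correlated with Fancg-/- replicate 1 at 0.989. Xist, the RNA of the inactive X chromosome, was at 11.30 to 12.23 in wild type and 11.19 to 12.13 in Fancc-/-, but at 5.99 to 7.39 in double-knockout mice. Eif2s3y, on the Y chromosome, read 2.89 to 3.20 in wild type, 2.94 to 3.30 in Fancc-/- and 8.81 to 9.35 in double-knockout mice. Fancg-/- replicates 1 and 3 carried both marks, with Xist at 11.31 and 10.75 and Eif2s3y at 7.64 and 5.78. Fancg-/- replicate 2, with Xist at 7.34 and Eif2s3y at 9.09, had the marks of the double-knockout mice and a member mean 0.44 above the mean of all arrays. All 3 double-knockout mice and no wild-type mouse carried these marks, so in the comparison of these groups sex and genotype cannot be told apart. On Fancg itself, Fancg-/- replicates 1 and 3 (6.55 and 6.64) lay within the Fancc-/- range of 6.43 to 6.72, and replicate 2 was at 6.00. What the mixed marks of replicates 1 and 3 come from was not tested, and the Fancg-/- results rest on these libraries as labelled. Fancc-/- replicate 3 correlated with every other array at 0.945 to 0.967, and at 0.954 and 0.961 with its own group. Double-knockout mice had less Fancg signal than wild type, by a log2 change of -1.10 ± 0.16 (SE, limma adjusted p = 0.0105). For Fancg-/- mice the same value was -0.44 ± 0.16, which did not pass (adjusted p = 0.567). Fancc was at 5.96 to 6.17 in Fancc-/- and 5.90 to 6.18 in wild type. Where its probe set lies relative to the deleted part is not known, so it does not check the genotype. Neutrophil markers averaged 12.37 to 12.83 on every array, and erythroid markers 9.41 to 10.94.

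The sequences before the start sites are shown for the members whose levels are described most closely below: Fos, Jun, Junb and Klf2, which fell in the double knockout, and Klf4, which fell in Fancc-/-. Each is the 250 bases just upstream of the RefSeq transcription start in GRCm38.p6, printed 5′ to 3′ on the gene's strand. Fos lies at chr12:85473640-85473889 on the plus strand and Jun at chr4:95052223-95052472 on the minus strand. Junb lies at chr8:84978749-84978998 on the minus strand, Klf2 at chr8:72318812-72319061 on the plus strand and Klf4 at chr4:55532476-55532725 on the minus strand. Capitals mark the core of the cAMP response element (TGACG), the EGR site (GCGGGGGCG or GCGTGGGCG) and the TATA box (TATAAA), each searched on both strands.
Fos: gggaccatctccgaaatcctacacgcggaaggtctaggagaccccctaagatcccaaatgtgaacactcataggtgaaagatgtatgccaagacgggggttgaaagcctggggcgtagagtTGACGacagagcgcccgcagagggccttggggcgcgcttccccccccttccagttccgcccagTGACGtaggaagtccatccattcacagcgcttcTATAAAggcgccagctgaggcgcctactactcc
Jun: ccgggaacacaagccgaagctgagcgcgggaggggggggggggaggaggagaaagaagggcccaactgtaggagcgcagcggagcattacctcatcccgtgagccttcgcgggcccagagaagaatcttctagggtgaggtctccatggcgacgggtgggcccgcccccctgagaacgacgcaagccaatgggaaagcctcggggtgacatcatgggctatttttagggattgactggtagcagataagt
Junb: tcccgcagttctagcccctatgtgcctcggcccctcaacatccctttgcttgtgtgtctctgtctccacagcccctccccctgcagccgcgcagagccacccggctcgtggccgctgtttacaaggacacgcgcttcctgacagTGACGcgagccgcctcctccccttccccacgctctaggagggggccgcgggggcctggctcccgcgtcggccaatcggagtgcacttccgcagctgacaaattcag
Klf2: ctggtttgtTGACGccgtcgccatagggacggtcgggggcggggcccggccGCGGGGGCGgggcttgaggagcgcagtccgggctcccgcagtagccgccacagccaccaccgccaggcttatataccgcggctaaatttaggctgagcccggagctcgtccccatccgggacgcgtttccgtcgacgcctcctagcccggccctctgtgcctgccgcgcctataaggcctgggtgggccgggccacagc
Klf4: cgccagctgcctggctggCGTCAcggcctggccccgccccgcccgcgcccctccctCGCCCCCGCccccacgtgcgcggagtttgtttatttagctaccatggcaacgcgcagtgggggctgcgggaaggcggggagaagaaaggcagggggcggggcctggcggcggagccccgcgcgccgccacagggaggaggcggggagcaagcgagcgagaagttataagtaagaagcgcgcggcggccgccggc
Promoters of 8 members had an entry in the RefSeq table. TGACG was found in 6 of these 8 (Fos, Fosb, Junb, Klf2, Klf4 and Atf3), and in 17.9% of all 27025 promoters in the table. The Fos window held it at 129 to 125 and at 66 to 62 bases before the start, with TATAAA at 33 to 28. TATAAA was in 13.0% of all promoters. The EGR site was found in Fosb, Klf2 and Klf4, against 3.05% of all promoters. The complete palindrome TGACGTCA, the AP-1 site TGACTCA and the CArG box of serum response factor were in 0 of the 8 windows, and in 1.62%, 4.43% and 1.40% of all promoters. These matches are exact letters in a window of 250 bases, and no binding was measured. Sites farther upstream or with other letters were not searched, and Egr1 and Ier2 had no entry. A count of 0 therefore does not show that a promoter lacks the site.

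The question of the first comparison is how marrow lacking both genes differs from wild type. Of the 10 members, 6 fell in the double knockout, by 2.08-fold to 5.10-fold: Egr1, Jun, Fos, Klf2, Junb and Ier2. No member rose. Of all genes tested, 3.01% were called lower in this comparison. The median change of the members was -1.16, beside -0.01 over all tested genes. The lowest values were in replicates 2 and 3, while replicate 1 lay close to the other genotypes.

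**Figure D1:**
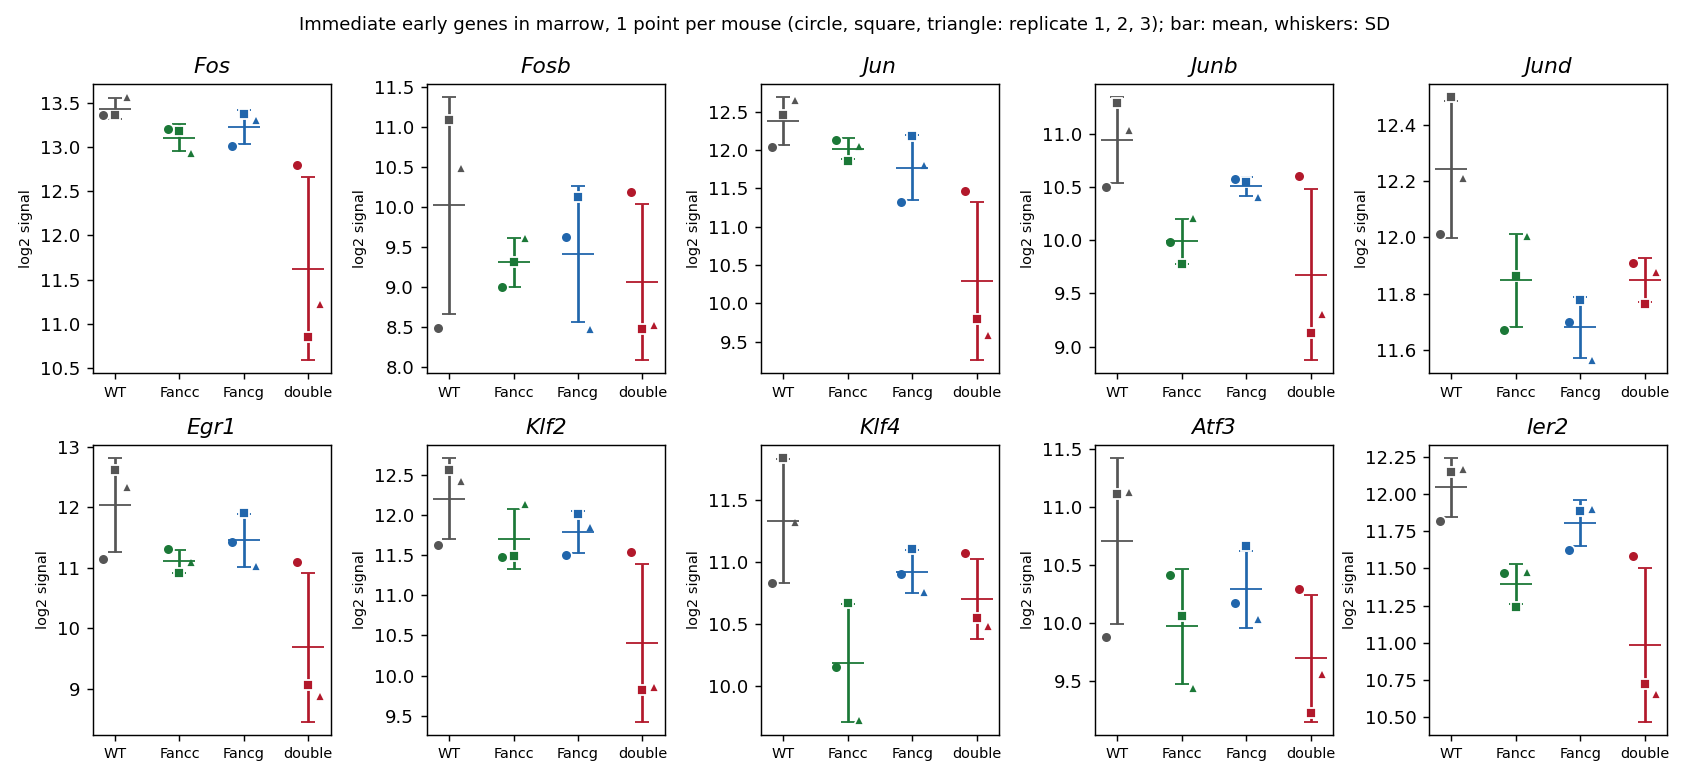
Log2 signal of each of the 10 members (vertical axes) in each genotype (horizontal axes: wild type, Fancc-/-, Fancg-/- and double knockout), with 1 point per mouse, a bar at the mean and whiskers for the SD of 3 mice. Double-knockout replicates 2 and 3 (square and triangle) lie below the other 10 arrays for Fos, Jun, Junb, Egr1, Klf2 and Ier2.

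Among the AP-1 members, Fos encodes the FOS subunit, which needs a JUN partner to bind DNA. Its signal was 13.36, 13.37 and 13.57 in the wild-type mice, 13.21, 13.18 and 12.93 in Fancc-/-, 13.01, 13.38 and 13.30 in Fancg-/-, and 12.80, 10.84 and 11.22 in the double knockout. The 9 arrays of the other genotypes stayed within 12.93 to 13.57, and all 3 double-knockout arrays were below them. The change in the double knockout was -1.81 ± 0.36 (SE, limma adjusted p = 0.0211), or 3.51-fold lower.

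Jun encodes the central subunit of AP-1. Its brighter probe set read 12.04, 12.46 and 12.65 in wild type, 12.13, 11.86 and 12.06 in Fancc-/-, 11.33, 12.18 and 11.81 in Fancg-/-, and 11.47, 9.80 and 9.59 in the double knockout. Replicate 1 of the double knockout lay within the Fancg-/- range, and replicates 2 and 3 lay below every other array. The double-knockout change was -2.09 ± 0.40 (limma adjusted p = 0.0185), or 4.27-fold lower. The second Jun probe set gave -2.25 ± 0.41 (adjusted p = 0.0199 in a fit of every probe set), so both probe sets fell.

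Junb encodes a JUN protein that can oppose JUN in growth control and that restrains myeloid cell expansion. It read 10.50, 11.29 and 11.04 in wild type, 9.98, 9.78 and 10.21 in Fancc-/-, 10.57, 10.55 and 10.40 in Fancg-/-, and 10.60, 9.12 and 9.31 in the double knockout. The double knockout overlapped wild type through replicate 1. The change was -1.26 ± 0.32 (limma adjusted p = 0.0454), or 2.40-fold lower, close to the threshold; in the fit of every probe set the adjusted p was 0.0511.

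Fosb and Jund did not pass in any of the comparisons with wild type. Fosb, a FOS relative, varied most within wild type, at 8.49, 11.09 and 10.48. Its double-knockout values were 10.19, 8.47 and 8.52, a value of -0.96 ± 0.64 (limma adjusted p = 0.404) that is within the spread of the mice. Jund, the JUN family member that is usually expressed steadily rather than induced, read 12.01, 12.50 and 12.21 in wild type and 11.91, 11.76 and 11.88 in the double knockout. All 3 double-knockout arrays were below all wild-type arrays, with a value of -0.39 ± 0.12 (adjusted p = 0.0818). Jund had the smallest gap between double-knockout replicate 1 and the mean of replicates 2 and 3, at 0.09. Its second probe set was above the array median on 1 array and was not tested.

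Atf3 encodes a stress-induced bZIP repressor. It read 9.88, 11.11 and 11.13 in wild type and 10.29, 9.23 and 9.56 in the double knockout, and the value of -1.01 ± 0.37 did not pass (limma adjusted p = 0.122).

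Among the zinc finger members, Egr1, which couples growth signals to transcription and is linked to quiescence of blood stem cells, had the largest change. It read 11.15, 12.61 and 12.33 in wild type, 11.30, 10.91 and 11.09 in Fancc-/-, 11.42, 11.90 and 11.03 in Fancg-/-, and 11.09, 9.07 and 8.88 in the double knockout. Replicates 2 and 3 of the double knockout were below 10.91, the lowest value of the other genotypes while replicate 1 was close to wild-type replicate 1. The change was -2.35 ± 0.52 (limma adjusted p = 0.0295), or 5.10-fold lower.

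Klf2, a regulator of lymphocyte trafficking and monocyte activation, read 11.63, 12.56 and 12.42 in wild type, 11.47, 11.49 and 12.14 in Fancc-/-, 11.51, 12.01 and 11.84 in Fancg-/-, and 11.54, 9.83 and 9.86 in the double knockout. All double-knockout arrays were below wild type, replicate 1 only just. The change was -1.79 ± 0.41 (limma adjusted p = 0.0323), or 3.46-fold lower.

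Ier2, a nuclear protein of the immediate early response, read 11.82, 12.15 and 12.17 in wild type, 11.47, 11.24 and 11.48 in Fancc-/-, 11.62, 11.89 and 11.90 in Fancg-/-, and 11.58, 10.73 and 10.65 in the double knockout. Wild type and double knockout did not overlap, and the change was -1.06 ± 0.21 (limma adjusted p = 0.0206), or 2.08-fold lower. In all, 6 members (Fos, Jun, Jund, Egr1, Klf2 and Ier2) had every double-knockout array below every wild-type array, against 16.9% of all genes tested.

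These double-knockout calls rest on few arrays. Without wild-type replicate 2, wild-type replicate 3, double-knockout replicate 2 or double-knockout replicate 3, 0 members were called. Calls over all genes fell as well, from 629 to 16, 56, 58 and 19 in that order. Without wild-type replicate 1, 3 members and 134 genes were called, and without double-knockout replicate 1, 7 members and 1853 genes. With double-knockout replicates 2 and 3 both left out, an alternative chosen after the values were seen, the group is 1 mouse, assumed to vary like the other groups. The calls over all genes were then 34, and 0 members were called. The median change of the members was -0.44, with Fos at -0.64, Jun at -0.91 and Egr1 at -0.94. With Xist as a covariate, 0 members and 0 genes in all were called. Xist separates wild-type from double-knockout mice without overlap, so this fit cannot tell sex from genotype and says little about the members.

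In Fancc-/- marrow 1 member fell, Klf4. Of all genes tested, 2.36% were called lower in Fancc-/-. The values of all 10 members were below wild type, from -1.15 to -0.33, with a median of -0.68 beside -0.01 over all tested genes. Klf4 encodes a zinc finger factor that promotes monocyte differentiation. Its brighter probe set read 10.83, 11.84 and 11.32 in wild type, 10.15, 10.67 and 9.73 in Fancc-/-, 10.91, 11.10 and 10.75 in Fancg-/-, and 11.07, 10.55 and 10.48 in the double knockout. Each Fancc-/- array was below each wild-type array, and the change was -1.15 ± 0.27 (SE, limma adjusted p = 0.0348). The second Klf4 probe set read 10.16, 11.11 and 10.90 in wild type and 9.29, 9.67 and 9.00 in Fancc-/-. Its change was -1.40 ± 0.24 (adjusted p = 0.00931 in the fit of every probe set).

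The next members in Fancc-/- were Junb (-0.95, limma adjusted p = 0.123), Jund (-0.40, 0.0972) and Ier2 (-0.65, 0.104), which did not pass. Together with Fos and Klf4 they made 5 members whose Fancc-/- arrays were all below wild type, against 13.1% of all genes tested. On the brighter probe set Klf4 missed the threshold on leaving out wild-type replicate 2 (limma adjusted p = 0.146), wild-type replicate 3 (0.116), Fancc-/- replicate 1 (0.0834) or Fancc-/- replicate 3 (0.0848), and on leaving out Fancg-/- replicate 1 (0.0561) or replicate 2 (0.0514). Leaving double-knockout replicates 2 and 3 out of the fit changed the estimate of the spread and not the Fancc-/- values.

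In Fancg-/-, 0 of 10 members passed limma at an adjusted p below 0.05, and 0.042% of all genes were called lower. At an unadjusted p below 0.05, which 7.0% of all genes reached, there was 1, Jund, at 11.70, 11.78 and 11.56 against 12.01, 12.50 and 12.21 in wild type (-0.56 ± 0.12, adjusted p = 0.186). With array weights in the fit, 1 member and 277 genes in all were called. Jund was the 1 member with all Fancg-/- arrays below wild type, against 8.61% of all genes. The values of the members ran from -0.61 to -0.20, with a median of -0.42. Without wild-type replicate 2 the median was -0.24, and without wild-type replicate 1 it was -0.69.

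**Figure D2:**
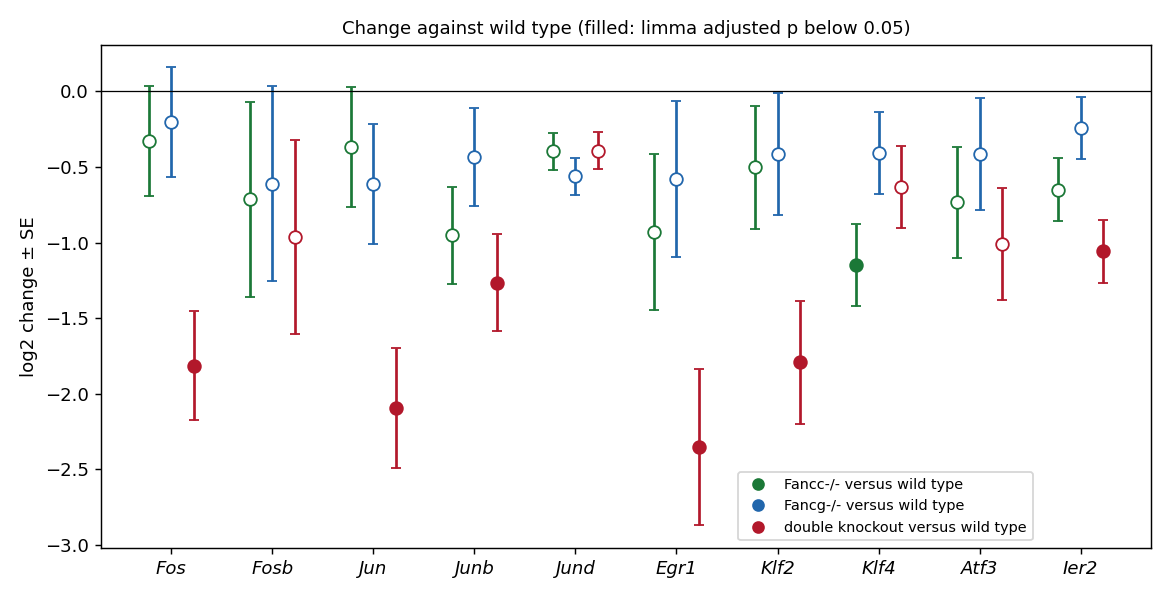
Log2 change against wild type (vertical axis, with SE) for each member (horizontal axis) in Fancc-/-, Fancg-/- and the double knockout; filled points passed limma at an adjusted p below 0.05. The 6 filled double-knockout points run from -2.35 for Egr1 to -1.06 for Ier2, and the filled Fancc-/- point is Klf4 at -1.15.

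All 3 comparisons use the same wild-type arrays, so their values are not independent of each other. In the order of group means, wild type was highest for all 10 members. The double knockout was lowest for 8 of them, Fancc-/- was lowest for Klf4, and Fancg-/- was lowest for Jund. The direct comparisons of the knockouts had no calls among the members by limma. Xist and Eif2s3y separate the double knockout from Fancc-/- as well, so sex and genotype cannot be told apart in that comparison. Between the double knockout and Fancc-/-, 0 passed (0.0084% of all genes did). An unadjusted p below 0.05 was reached by 4 members and 19.7% of all genes: Jun at -1.73 (adjusted p = 0.0827), Fos at -1.49 (0.0845), Klf2 at -1.29 (0.137) and Egr1 at -1.42 (0.175). Klf4 was at 0.52 (0.317). Between the double knockout and Fancg-/-, 0 passed (0% of all genes) and 6 had an unadjusted p below 0.05 (14.4% of all genes), with Fos at -1.61 and Ier2 at -0.82 (both 0.174). Between the single knockouts 0 passed, against 0.109% of all genes, and 1 had an unadjusted p below 0.05 (9.04% of all genes). The interaction, which takes both single-knockout changes away from that of the double knockout, passed for 0 members and 0.0084% of all genes (3 members and 14.9% of all genes at an unadjusted p below 0.05, lowest adjusted p = 0.189). Without double-knockout replicate 1, Fos, Jun, Junb, Egr1, Klf2 and Ier2 passed against both single knockouts, as did 1285 genes in all against Fancc-/- and 993 against Fancg-/-. Fos was then at -2.07 against Fancc-/- and at -2.20 against Fancg-/-.

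The members moved together from mouse to mouse. Across the 45 pairs of members the median Pearson correlation over the 12 arrays was 0.72, from 0.23 for Fos with Jund to 0.96 for Fos with Jun. With genotype means subtracted the median was 0.70, and without double-knockout replicates 2 and 3 it was 0.68. These correlations are a description of points that share arrays and normalization. Averaged over the members, signal relative to the mean of 12 arrays was 0.05, 0.98 and 0.81 in wild-type replicates 1 to 3. It was between -0.08 and -0.04 in Fancc-/-, and at 0.07, 0.44 and -0.01 in Fancg-/-. The double-knockout arrays were at 0.14, -1.18 and -1.12. Wild-type replicate 1 was the lowest wild-type array for 10 of 10 members, and for 25.4% of all genes. Double-knockout replicate 1 was the highest of its group for 10 of 10 members, and for 36.5% of all genes. Double-knockout replicates 2 and 3 were below all other 10 arrays for 6 of 10 members, against 9.93% of all genes. The gap between replicate 1 and the mean of replicates 2 and 3 was largest for Egr1 (2.12), Jun (1.78), Fos (1.76), Klf2 (1.70) and Fosb (1.69).

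As a check on handling, the members were set against the control probe sets for 18S ribosomal RNA, actin and Gapdh on each array. The 5′ probe set of 18S split the arrays into 8 at 12.03 to 12.52 and 4 at 8.88 to 10.64. The 4 low arrays were wild-type replicate 1 (9.21), Fancc-/- replicate 2 (9.72), double-knockout replicate 2 (10.64) and double-knockout replicate 3 (8.88). The middle 18S probe set was at 8.09 in wild-type replicate 1 and at 8.46 and 8.30 in double-knockout replicates 2 and 3, against 9.58 in double-knockout replicate 1. The actin 3′ and 5′ probe sets spanned little, from 13.94 to 14.09 and from 13.52 to 13.86, and Gapdh 3′ ran from 12.87 to 13.17.

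**Figure D3:**
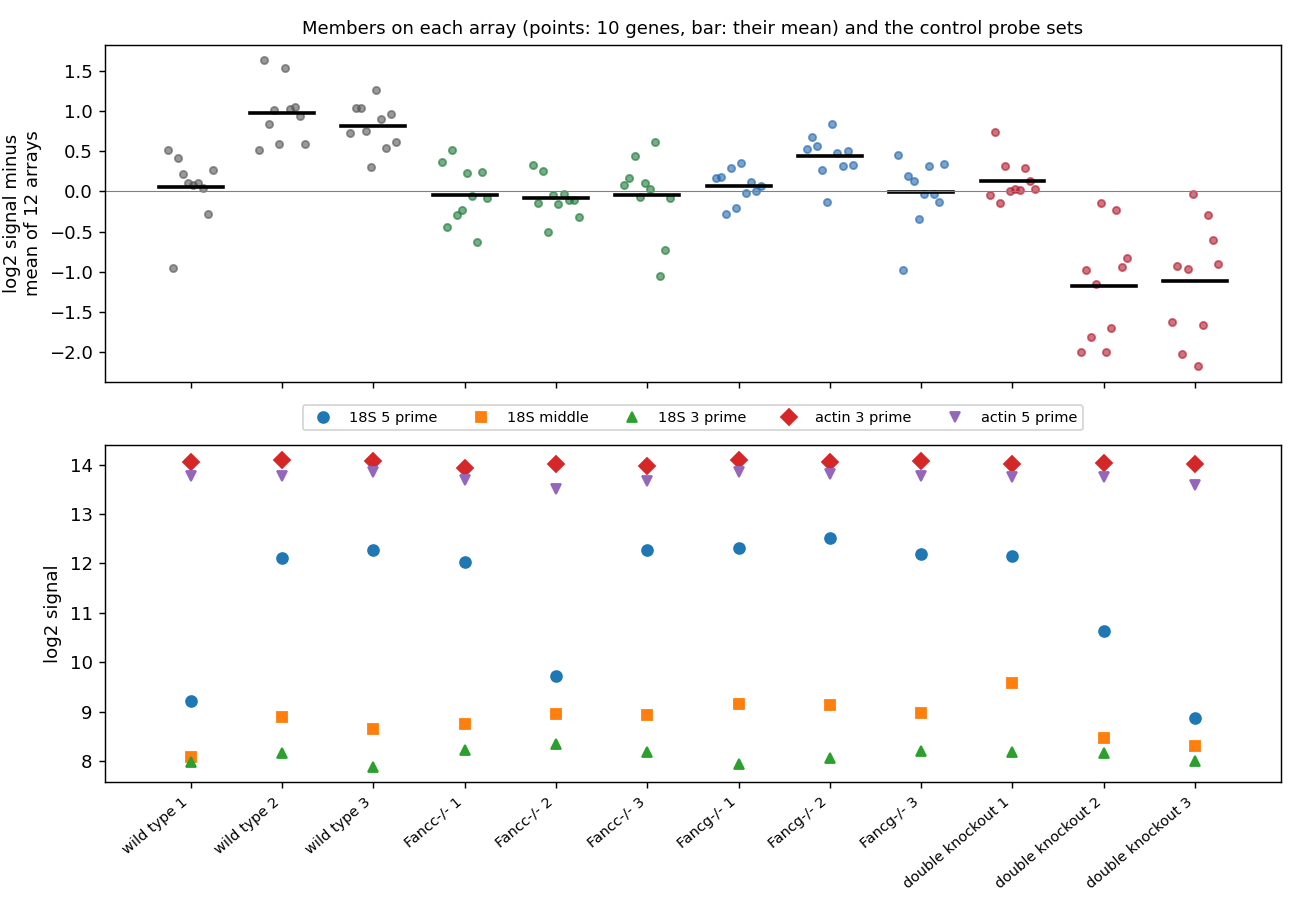
Upper panel: log2 signal of the 10 members minus each gene's mean of 12 arrays (vertical axis) on each array (horizontal axis), with a bar at their mean. Lower panel: log2 signal of the 18S and actin control probe sets on the same arrays; wild-type replicate 1 and double-knockout replicates 2 and 3 are low on 18S 5′ and on the members relative to the rest of their groups, while Fancc-/- replicate 2 is low on 18S 5′ at 9.72 with a member mean of -0.08.

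Low 18S and low members fell on the same arrays in wild type and in the double knockout, while the Fancc-/- arrays differed little, with member means of -0.04, -0.08 and -0.05. Fancc-/- replicate 2, low on 18S 5′, was the lowest of its group for 4 of 10 members, and replicates 1 and 3 for 3 each. Because the arrays form clusters on 18S 5′, a pooled correlation with it mainly reflects the difference between the clusters. Its median over the members was 0.57 over 12 arrays and 0.70 with genotype means subtracted. Without double-knockout replicates 2 and 3 it was 0.33. Within the 8 high arrays the correlation of 18S 5′ with the members ran from -0.14 to 0.16. These 8 span only 12.03 to 12.52 on 18S 5′, so their correlations cannot show whether the members follow the split. With 18S middle the median correlation of the members was 0.34 over 12 arrays and 0.85 with genotype means subtracted, but -0.12 without double-knockout replicates 2 and 3 and -0.32 over the 8 arrays, so its sign rests on those replicates. For Egr1 and 18S middle over 12 arrays, Pearson's r was 0.41 (permutation p = 0.189, adjusted 0.666) and Spearman's rho 0.175 (permutation p = 0.586, adjusted 0.741). Without wild-type replicate 1 and double-knockout replicate 1, the arrays farthest from the median, r was 0.66. Without double-knockout replicates 2 and 3 it was -0.10. Of 110 pairs of a member and a control measure, 0 had an adjusted permutation p below 0.05, with 11 at an unadjusted p below 0.05 for r and 12 for rho, the pooled 18S 5′ pairs included. The 12 for rho were all with actin measures, and the 11 for r with actin or 18S 5′. Median correlations of the members with actin 3′, middle and 5′ were 0.30, 0.46 and 0.43. With genotype means subtracted they were -0.02, 0.35 and 0.36. Klf4 with actin 3′ had r 0.76 (permutation p = 0.00405, adjusted 0.408) and rho 0.78 (permutation p = 0.00427, adjusted 0.134). The difference between Gapdh 3′ and 5′, a measure of RNA integrity, had a median correlation of -0.09 with the members. Without Fancc-/- replicate 2 and wild-type replicate 2, the arrays farthest on it, the median was -0.74, and Egr1 and Ier2 had adjusted permutation p values of 0.0401 and 0.0286. Over the 8 arrays high on 18S 5′ it was 0.48.

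With 18S 5′ as a covariate, added after the values were seen, 6 members and 403 genes in all were called in the double knockout. Fos was then at -1.71 ± 0.35 (limma adjusted p = 0.0305) and Egr1 at -2.07 ± 0.34 (0.0191). With the 4 low arrays left out, 0 members and 16 genes in all were called in the double knockout, from 1 double-knockout and 2 wild-type arrays, and the members' median change was -0.64. The part of RNA handling in the members' levels was not tested further. In the Fancc-/- comparison, leaving out the 4 low arrays put Klf4 at -1.64.

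The wider immediate early programme was read on 36 other tested genes of a list of 39. In the double knockout 11 fell (3.01% of all genes were called lower) and 1 rose, Dusp4 (0.93), with a median of -0.60. The members with the smallest p were Rgs2 (-0.63 ± 0.09, limma adjusted p = 0.00892), a brake on G-protein signalling, Dusp2 (-1.44 ± 0.22), a phosphatase that switches off MAP kinases, Rhob (-1.36 ± 0.24), a stress-inducible small GTPase, and Zfp36 (-1.79 ± 0.32), which promotes decay of inflammatory mRNAs. Zfp36 read 12.45, 12.41 and 12.74 in wild type and 11.63, 10.22 and 10.38 in the double knockout, the same split of replicates as in the members. Rgs2 did not split, at 11.89, 12.11 and 12.08 in wild type and 11.48, 11.33 and 11.38 in the double knockout. Without double-knockout replicates 2 and 3 the list had 0 calls and a median of -0.08. Without wild-type replicate 2 or double-knockout replicate 3 it had 0 calls, without wild-type replicate 3 or double-knockout replicate 2 it had 2, and without double-knockout replicate 1 it had 19 lower. In Fancc-/-, 3 fell (Rgs2, -0.97, Dusp2, -1.58, and Gadd45b, -1.07, a growth arrest and stress gene), against 2.36% of all genes, with a median of -0.41. In Fancg-/-, 0 passed limma, with 4 at an unadjusted p below 0.05 (7.0% of all genes) and a median of -0.28.

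**Figure D4:**
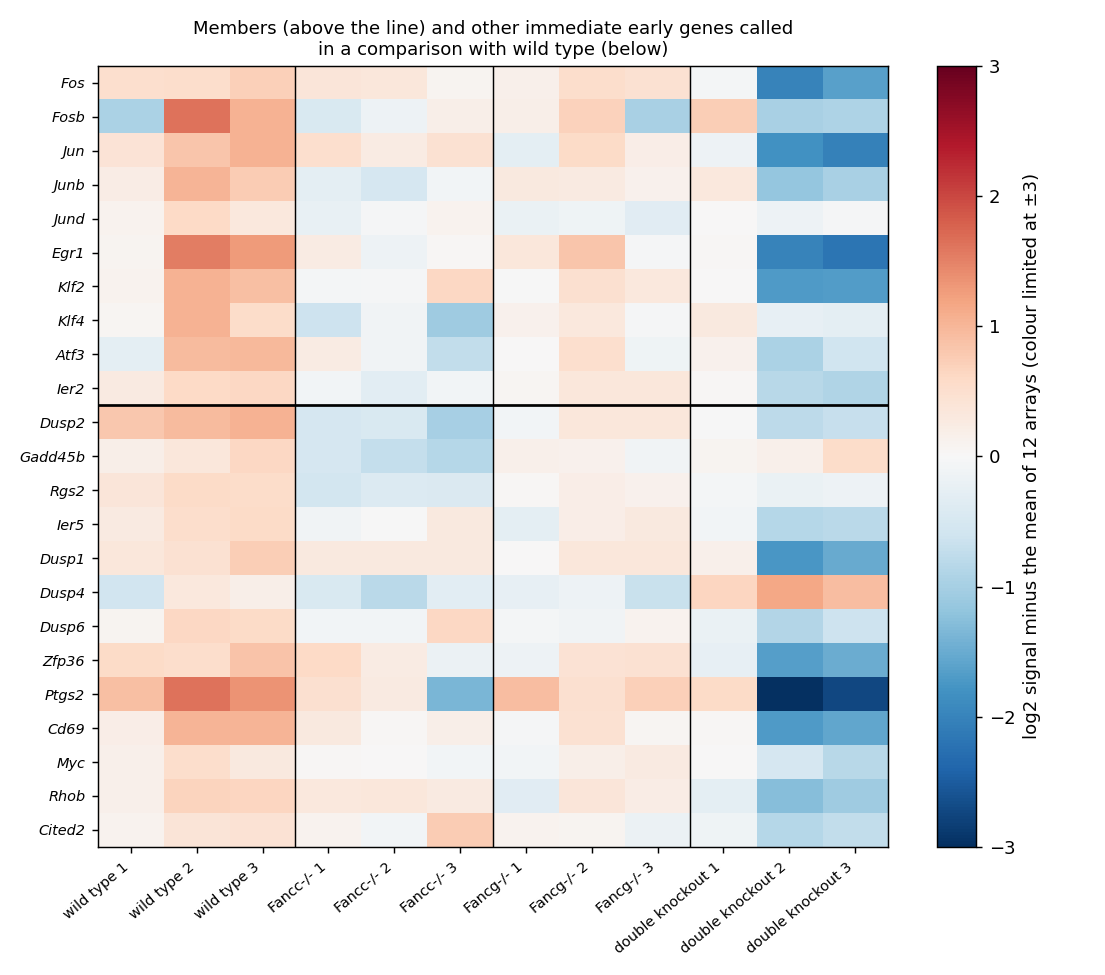
Log2 signal minus the mean of 12 arrays (colour, limited at ±3) for the 10 members (above the line) and the 13 other immediate early genes called in a comparison with wild type (below the line), on each array (columns). Double-knockout replicates 2 and 3 form the darkest low columns, with a lowest value of -3.21, and double-knockout replicate 1 does not.

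Upstream and related genes moved less uniformly. Of all genes tested, 3.01% were called lower in the double knockout. Of 20 tested other AP-1 and bZIP genes, Creb1 (-0.89), which binds the cAMP response element, and Cebpd (-0.95), a myeloid bZIP factor, fell in the double knockout, and 0 rose. In double-knockout replicates 1 to 3 Creb1 read 9.42, 8.63 and 8.54, a split like that of the members, and Cebpd 9.29, 9.05 and 9.42. Of 18 other EGR, KLF and NR4A genes, Klf9 rose there (1.80 ± 0.36, limma adjusted p = 0.0207). It read 8.80, 9.65 and 9.47 in wild type and 10.83, 11.22 and 11.26 in the double knockout, so replicate 1 was high with the others. Of 21 MAP kinase and serum response regulators, Mrtfa (-1.34), a coactivator of serum response factor, Rps6ka5 (-0.92), a kinase of CREB and histone H3, and Map3k1 (-0.59) fell, and Map2k3 (0.84), which activates p38, rose. In double-knockout replicates 1 to 3 Mrtfa read 7.69, 6.97 and 7.28, Rps6ka5 7.38, 6.48 and 6.62, and Map3k1 6.20, 5.77 and 5.94. Map2k3 read 10.22, 10.60 and 10.86. None of these lists had a call in Fancc-/- or Fancg-/-. Of 11 described targets of the members, Thbd (-1.18), the thrombomodulin gene, and S1pr1 (-1.25), the lymphocyte exit receptor controlled by KLF2, fell in Fancc-/- (2.36% of all genes did). In the double knockout 0 passed, with 2 at an unadjusted p below 0.05 (24.2% of all genes). Of 12 heat shock genes 0 passed limma in any comparison with wild type, with 3, 0 and 2 at an unadjusted p below 0.05 in Fancc-/-, Fancg-/- and the double knockout, where 19.8%, 7.0% and 24.2% of all genes had one. The lowest p in the double knockout was that of Hspa1b (-2.52 ± 0.80, adjusted p = 0.0830).

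Signals of cell type markers differed between the genotypes as well. In bulk RNA, fewer cells of a type and less RNA per cell cannot be told apart. Of 16 B cell markers 15 fell in Fancc-/- (median -2.50) and 15 in the double knockout (median -2.26). The double-knockout count was 1 without wild-type replicate 2, 6 without wild-type replicate 3 and 5 without wild-type replicate 1. It was 3 without double-knockout replicate 2 and 1 without double-knockout replicate 3. With Xist, which separates these groups, as a covariate it was 0. In Fancg-/- 0 passed limma, all 16 had an unadjusted p below 0.05 (median -1.51), and 9 fell without Fancg-/- replicate 3, whose marker mean was 8.07. Their mean per array was 8.52 to 9.05 in wild type, against 5.78 to 6.54 in Fancc-/- mice. It was 6.42 to 8.07 in Fancg-/- mice and 6.34 to 6.49 in double-knockout mice. Of 15 erythroid markers 11 rose in Fancc-/- and 5 in the double knockout. The Fancc-/- count was 6 without wild-type replicate 2 or 3. The double-knockout count was 0 without wild-type replicate 2, wild-type replicate 3 or double-knockout replicate 3. It was 2 without double-knockout replicate 2, Fancg-/- replicate 1 or Fancg-/- replicate 2, 3 without wild-type replicate 1 and 10 without Fancc-/- replicate 3. Monocyte and macrophage markers, with 0 of 14 called in each comparison, averaged 9.05 to 9.45 in wild type and 9.00 to 9.24 in the double knockout. In Fancc-/-, where Klf4 fell, they averaged 9.24, 9.24 and 8.71 in replicates 1 to 3, so only replicate 3 lay below the wild-type range. An unadjusted p below 0.05 was reached by 10 of 14, against 19.8% of all genes. The changes of the 14 went both ways, from -1.68 to 1.66 (median -0.42). Of 10 eosinophil, basophil and mast cell markers 3 fell in Fancc-/- (median -1.32). Their mean was 8.85, 8.85 and 6.94 in Fancc-/- replicates 1 to 3, against 9.41 to 9.74 in wild type, so replicate 3 was far the lowest. Of 16 T and NK cell markers 2 fell in Fancc-/-. Of 15 neutrophil markers 1 fell in Fancc-/- and 2 in the double knockout, and of 11 stem and progenitor markers 1 and 3. Of all genes, 2.36% and 3.01% were called lower in these comparisons. Within the double knockout, where the members split, the B cell mean was 6.49, 6.39 and 6.34 in replicates 1 to 3. The erythroid mean was 10.81, 9.99 and 10.14, the T and NK cell mean 7.26, 6.79 and 6.75, and the mean of stroma, bone and vessel markers 5.15, 6.33 and 5.96. The neutrophil mean was 12.54, 12.40 and 12.39, below the wild-type range of 12.69 to 12.79. Monocyte and macrophage markers averaged 9.24, 9.03 and 9.00, and stem and progenitor markers 7.19, 6.96 and 6.98. Megakaryocyte and platelet markers averaged 6.76, 6.57 and 6.79, and eosinophil, basophil and mast cell markers 8.73, 9.04 and 8.88. The part of these cell types in the members' levels was not tested.

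The genes most like the members were sought by correlation with the members' average over the 12 arrays. The 10 highest outside the members were Cd69 (0.975), Trib1 (0.973), Phf20l1 (0.967), Tob2 (0.966), Dnajb9 (0.963), Kdm3b (0.963), Ccl4 (0.961), Ankhd1 (0.955), Prpf38b (0.948) and Dock11 (0.948). Cd69, a lymphocyte activation antigen, read 9.59, 10.39 and 10.40 in wild type and 9.41, 7.69 and 7.83 in the double knockout. Without double-knockout replicates 2 and 3, the 10 correlations were 0.864 to 0.955.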

How the data were processed

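RNA of 12 marrow samples was amplified from an oligo-dT primer, labelled with biotin and hybridized to Affymetrix mouse arrays, per the labels' protocols. The deposited log2 values per probe set were made by the authors with RMA; the submitters' processing notes name RMA and Partek, with versions not stated. Values ran from 2.43 to 14.6 and array medians from 4.79 to 4.87. With 3 arrays per genotype, their number limits the precision.

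Probe sets with 1 gene symbol were used (34945), and the 64 controls were kept apart. The probe set with the highest mean stood for a gene, and 11908 genes above the array median (percentile 50) on at least 3 arrays were tested. limma 3.58.1 in R 4.3.3 fitted 1 model with a variance trend over 12 arrays (8 residual degrees of freedom) for 7 comparisons. Tests were 2-sided, with Benjamini-Hochberg adjustment over all tested genes and a threshold of 0.05. The fit was tested on simulated data with independent noise for each gene and array. That simulation holds no shifts shared by many genes of an array, so it does not bear on calls that rest on such shifts. Correlations with controls used 100000 permutations (Python 3.11.15).

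The members, gene lists and tests were chosen with earlier results of these data known. All members are named; from each list up to 4 genes past the threshold per comparison with wild type, by smallest p, or up to 2 as values. Alternatives covered filter, probe set, scaling, variance model, array weights, groups in the fit, replicate block, covariates and each array left out. Promoters came from a RefSeq table of GRCm38.p6; Egr1 and Ier2 were not matched.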

Additional observations from a re-analysis of the deposited data

How the results depend on the processing

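The count of members called by limma depended on the setting in most comparisons. In Fancc-/- against wild type it was 1. It was 0 without variance moderation and with Xist as a covariate, and 0 to 3 with each array left out. It was 4 with array weights and 4 with the mean 18S level as a covariate. The calls over all genes were 755 and 513 in these last settings, against 540 in the main fit. For double-knockout mice against wild type it was 6, and it was 0 without variance moderation and with Xist as a covariate, 3 with only the compared groups in the fit, 10 with array weights and 0 to 7 with each array left out. Without moderation the calls over all genes in this comparison also went from 629 to 39. Xist separates these groups, so its setting cannot tell sex from genotype here. With array weights the members' count went from 0 to 1 in Fancg-/-. It went to 5 and 6 in the double knockout against Fancc-/- and Fancg-/-, and to 2 in the interaction. Array weights also took the calls over all genes from 629 to 3382 in the double knockout against wild type, and to 1727, 2250 and 1035 in those last comparisons. With each array left out the members' counts in those 3 ran from 0 to 6, 0 to 6 and 0 to 3. Alternatives chosen after seeing the data were 18S 5′ as a covariate, leaving out the 4 arrays low on it, and leaving out double-knockout replicates 2 and 3. With 18S 5′ as a covariate, 3 members and 515 genes in all were called for Fancc-/- mice against wild type. For double-knockout mice 6 members and 403 genes in all were called. Leaving out the 4 arrays, or the 2, moved the members' median to -0.64 and -0.44 in the double knockout against wild type, to -0.11 and -0.11 against Fancg-/-, and to 0.83 and 0.60 in the interaction. Both omissions leave replicate 1, the highest of its group for 10 of 10 members, as the only double-knockout array. Without Fancc-/- replicate 3, calls over all genes were 1384 in the double knockout against wild type and 105 in the interaction. The handling check had 0 pairs, and 2 (Egr1 and Ier2 with Gapdh 3′ minus 5′) with the 2 arrays farthest on each measure left out.

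Replicate numbers did not pair the samples, since 5 of 18 correlations between deviations of same-numbered arrays were above 0.1 (range -0.37 to 0.20). With the replicate block, the calls against wild type were 1 for Fancc-/- and 4 for double-knockout mice, where Junb and Klf2 missed at adjusted p values of 0.0620 and 0.0522. The other comparisons kept 0.

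The members' single values were followed in the comparisons with wild type and of the double knockout with each single knockout. Of these, 31 changed sign, 76 lost a call and 46 gained one, while 1397 kept direction and side of the threshold. For the double knockout against Fancc-/-, Jund was at -0.025 with the mean of probe sets, -0.034 with quantile normalization again and -0.12 with Xist, and from -0.084 to 0.082 with each array left out. Fosb was at 0.19 with the mean 18S level, 0.13 with 18S 5′ and from -0.81 to 0.045 with each array left out, and Junb at 0.061 with Xist. Without the 4 low arrays, Fosb, Junb, Atf3 and Ier2 were at 0.88, 0.50, 0.37 and 0.11, and without the 2 double-knockout arrays at 0.88, 0.61, 0.32 and 0.19. Against Fancg-/-, Fosb was at 0.53 with the mean 18S level, 0.52 with 18S 5′ and from -0.92 to 0.0084 with each array left out. Under both omissions Fosb, Junb, Klf4 and Atf3 were at 0.78, 0.091, 0.15 and 0.0020. Against wild type, Fosb was at 0.17 without the 2 arrays.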
